A study of Sus scrofa with 16 samples.

Results

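The 16 pig livers of this study carry sample numbers in 2 separate runs, 1 to 8 and 55 to 62. They are called here series 1 (n = 8) and series 2 (n = 8), and together they make up all 16 arrays. Membership was read from the number that ends the name of each scanner file, and no measured value was used. What the runs of numbers stand for is not stated, so a difference between them cannot be assigned to birth, slaughter, sampling or handling of the pigs. Both series hold 4 low-RFI pigs (RFIneg) and 4 high-RFI pigs (RFIpl). RFI is residual feed intake, the part of an animal's feed consumption that its body weight and growth do not account for, and the pigs belong to strains that differ in it. Every pig weighed 20 kg, was fed ad libitum and gave 1 liver RNA sample for 1 array. The labels state no age. Each of the 4 slides carried 1 low-RFI and 1 high-RFI pig of each series. Series, line and slide were therefore balanced, and each slide and line gave 1 pair of pigs that differed by series, 8 pairs in all. The position of an array on its slide was not evenly spread over the 2 series.

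The liver shifts between burning and storing fat as meals come and go. Between meals fatty acids enter mitochondria through CPT1A, while after feeding insulin raises the enzymes that make fatty acids, triglycerides and cholesterol. Liver cells also answer heat and misfolded protein with chaperones, low oxygen with hypoxia-inducible genes such as EPO, and virus with interferon-induced genes. Hepatocytes are lined by sinusoidal endothelium, a leaky vessel wall rich in scavenger receptors such as STAB1.

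The main differences were lower HSP70.2, ANGPTL4, CPT1A and VCAM1 in series 2, and higher ACSL4, MX2 and MVK. Their probes are 60 bases long. The probes of HSP70.2 and ANGPTL4 are given whole because they read the 2 lower transcripts with the largest changes among called genes well above background in both series. Each can be read without a stop codon in 2 of 3 forward frames, 55% of its bases are G or C, and it shares no run of 20 bases with a probe of another named gene on the array.
HSP70.2: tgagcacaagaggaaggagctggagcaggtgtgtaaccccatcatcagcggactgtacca
ANGPTL4: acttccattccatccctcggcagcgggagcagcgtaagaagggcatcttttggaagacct
Of the probes without a gene symbol, those with the largest changes are identified by their opening 30 bases, since no gene name was used for them. The 3 higher in series 2 come before the 3 lower.
A_72_P199347: tgaagcccttacaagtgcactgtgaatttc
A_72_P194642: cccacttactgactattttgatggtgattc
A_72_P123711: atctatttttgcatctttgttcccagcaca
A_72_P297384: gaagctgagatgcctgtgtcatgctttcag
A_72_P162596: cggaagttcttataactcagcatttgtttg
A_72_P122831: aaaggatctggagatcatgctatgccctgt

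Levels are log2 signals relative to the 75th percentile of their own array, and a change is the level in series 2 minus that in series 1 on the log2 scale. A probe or gene is called where the Benjamini-Hochberg adjusted p of limma, with line and slide as covariates, is under 0.05. Of 30097 probes tested, 175 were called, or 0.581%, with 90 higher (0.299%) and 85 lower (0.282%) in series 2. Higher probes made up 51.4% of those called, but 27.8% when arrays were scaled by their medians. Of 4487 genes, each represented by its brightest tested probe, 25 were called (0.557%), 8 higher (0.178%) and 17 lower (0.379%). Without adjustment for the number of probes, 1083 genes (24.1%) had a p under 0.05, 454 higher (10.1%) and 629 lower (14%). The median change over all genes was -0.02 and the median SE over probes 0.145. The 8 livers of one series lay wholly above or below the 8 of the other for 17 genes, 0.379% of those tested. In all 8 pairs 78 genes were higher in series 2 (1.74%) and 108 lower (2.41%). The 17 called genes that had several probes showed all their probes on the same side, and in 2 of them, ACSL4 and ANGPTL4, every probe was called.

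**Figure D1:**
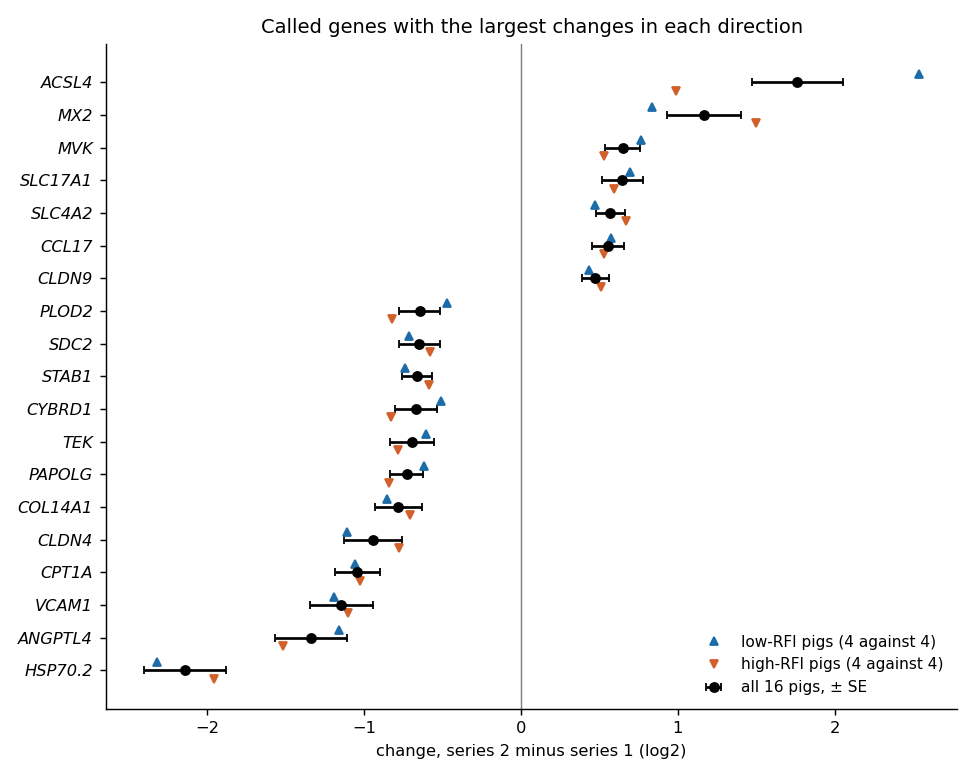
Change of called genes with the largest changes among those well above background in both series (EPO at -4.33 and LEPR at -1.99 are left out), series 2 minus series 1 in log2 units, for all 16 pigs with its SE (black), and for the low-RFI and the high-RFI pigs apart (triangles, 4 pigs against 4). Every gene shown lay on the same side of 0 in both lines, from ACSL4 at 1.76 to HSP70.2 at -2.14.

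The heat shock gene HSP70.2, which encodes an inducible chaperone that refolds damaged proteins, was lower in all series 2 livers than in any series 1 liver. Its level ran from 3.13 to 5.05 with a median of 4.20 in series 1, and from 1.43 to 2.28 with a median of 2.18 in series 2. The 2 ranges did not overlap. The change was -2.14 ± 0.26 (SE, 8 pigs per series), a 4.4-fold lower level (limma adjusted p = 0.0087), and it was lower in 8 of 8 pairs. Slide by slide the change was -1.95, -1.24, -3.04 and -2.32. The second probe of the gene, which is dimmer, changed by -1.38 and was lower in 7 of 8 pairs (limma adjusted p = 0.076). The copies of this gene are nearly identical in sequence, and which of them the probe binds was not tested.

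Of 19 heat shock genes listed, 12 were tested; HSP70.2 was the only one called, and 10 of the 12 were lower in series 2, where 53.7% of all genes were. Their median change was -0.32, against -0.02 over all genes. At an unadjusted p under 0.05, 4 members were lower and none higher, against 14% and 10.1% of all genes. The list members named here and below that were not called were picked after their values were seen. DNAJB1, a co-chaperone of HSP70, ran from 4.18 to 6.17 in series 1 and from 3.44 to 4.16 in series 2, again without overlap, with a change of -1.05 that missed the threshold (limma adjusted p = 0.063). HSPA6, another inducible member of the HSP70 family, differed by -1.76, and HSPH1, an exchange factor for HSP70, by -1.34, with adjusted p-values of 0.063 and 0.072. Other members were nearer 0, such as HSP90AB1 at -0.09 and the mitochondrial HSPE1 at 0.06.

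Genes of endoplasmic reticulum stress, which fold and quality-check secreted proteins, had a median change of -0.44. All 11 tested members of 26 listed had a lower mean in series 2, where 53.7% of all genes had, 4 of them at an unadjusted p under 0.05 against 14% of all genes, and none was called. HSPA5, the main chaperone of this compartment, ran from 3.92 to 6.58 in series 1 and from 3.58 to 4.63 in series 2, a difference of -0.89 with overlapping ranges. SDF2L1, a partner of HSPA5, was lower in 8 of 8 pairs by 1.09 (limma adjusted p = 0.090). The transcription factors DDIT3, at -0.44, and ATF4, at -0.01, differed by less. On single slides the median of the list ran from -0.86 on slide 1 to -0.06 on slide 2, and that of the heat shock list from -0.90 to -0.05 on the same slides.

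**Figure D2:**
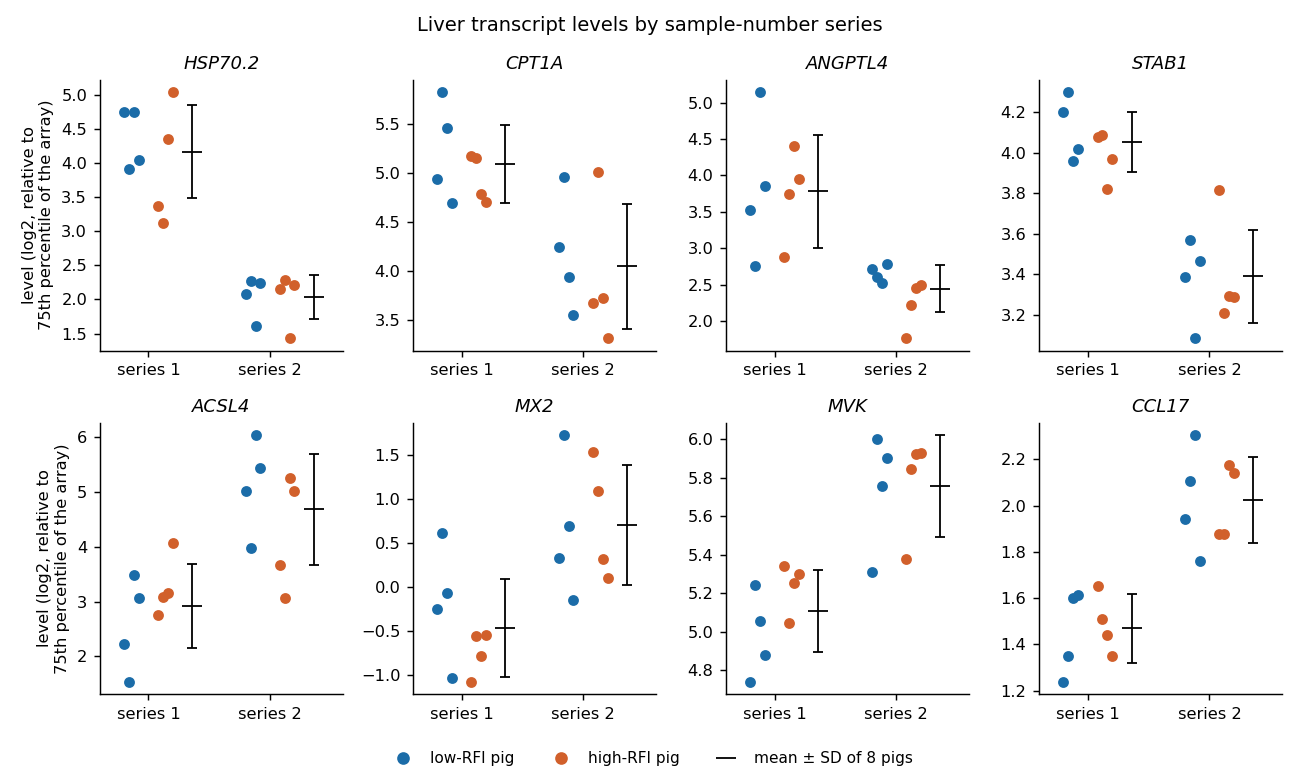
Levels of 8 called genes in each of 16 livers, log2 relative to the 75th percentile of the array, by series and line, with the mean and SD of 8 pigs beside each series. HSP70.2, STAB1 and CCL17 show no overlap between the series, and in all 8 genes the change had the same sign in low-RFI and high-RFI pigs.

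CPT1A, the enzyme that commits long-chain fatty acids to oxidation in mitochondria, was lower in series 2. It ran from 4.69 to 5.82 with a median of 5.04 in series 1 and from 3.31 to 5.01 with a median of 3.83 in series 2. The ranges overlapped because 1 pig of each line in series 2 stayed near 5. The change was -1.04 ± 0.14 (SE, 8 pigs per series), 2.06-fold lower, and lower in 8 of 8 pairs (limma adjusted p = 0.014). Low-RFI pigs changed by -1.06 and high-RFI pigs by -1.02, and 4 of 6 probes of the gene were called.

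ANGPTL4, a secreted inhibitor of lipoprotein lipase that is switched on by fatty acids and fasting, was also lower. Series 1 livers ran from 2.75 to 5.15 (median 3.80) and series 2 livers from 1.76 to 2.79 (median 2.51). Only the top of series 2 reached the bottom of series 1. The change was -1.34 ± 0.23 (SE, 8 pigs per series), 2.53-fold lower (limma adjusted p = 0.036), in 8 of 8 pairs. Both probes with its symbol were called, and so was a further probe, A_72_P359633, that the array describes as the same gene (-1.25, limma adjusted p = 0.045).

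CPT1A and ANGPTL4 were the only called members of the list of fatty acid oxidation and ketone bodies. Of 31 genes listed, 21 were tested, 10 had a higher and 11 a lower mean in series 2, and the median was -0.01. FABP1, the abundant fatty acid carrier of hepatocytes, differed by 0.68 and PLIN2, which coats lipid droplets, by -0.62 (limma adjusted p = 0.074 and 0.12). PDK4, which spares glucose when fat is burned, differed by 0.41.

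ACSL4, which activates arachidonic and other polyunsaturated fatty acids, was the called gene with the largest higher level in series 2. It ran from 1.54 to 4.07 (median 3.08) in series 1 and from 3.06 to 6.04 (median 5.02) in series 2, with overlap. The change was 1.76 ± 0.29 (SE, 8 pigs per series), 3.39-fold, higher in 7 of 8 pairs (limma adjusted p = 0.028). All 6 of its probes were called, with changes from 1.44 to 1.86. Low-RFI pigs changed by 2.53 and high-RFI pigs by 0.99, but this difference between lines, 1.55 ± 0.41 (SE), did not pass the interaction test (limma adjusted p = 0.46).

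Genes of fatty acid and triglyceride synthesis had a higher median in series 2, at 0.35. Of 22 genes listed 17 were tested, 15 with a higher and 2 with a lower mean, where 46.3% of all genes were higher. At an unadjusted p under 0.05, 8 were higher, where 10.1% of all genes were. None was called at the adjusted threshold by its brightest probe. GPAT is not a listed name, and 1 of its 2 tested probes, not the brightest, was called. That probe was higher in 8 of 8 pairs by 1.72 (limma adjusted p = 0.033). SCD, which makes monounsaturated fatty acids, ran from 4.12 to 7.09 in series 1 and from 6.11 to 7.92 in series 2, and was higher in 8 of 8 pairs by 1.28 ± 0.28 (SE, limma adjusted p = 0.054). FASN, the fatty acid synthase, differed by 1.01 and ACSS2, which turns acetate into acetyl-CoA, by 1.49 (limma adjusted p = 0.077 and 0.068). PNPLA3, a lipid droplet protein that follows feeding, differed by 1.80 with a wide SE of 0.64. AGPAT2, an acyltransferase of triglyceride synthesis, went the other way at -0.45. Low-RFI pigs had a median of 0.96 over the list and high-RFI pigs one of 0.16, and a difference between lines was not called for any gene.

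In cholesterol synthesis, MVK (mevalonate kinase) was the called member. It ran from 4.74 to 5.34 (median 5.15) in series 1 and from 5.31 to 6.001 (median 5.87) in series 2, and the ranges overlapped only at their ends. The change was 0.65 ± 0.11 (SE, 8 pigs per series), 1.57-fold, higher in 8 of 8 pairs (limma adjusted p = 0.035), and its other probe differed by 0.46. Of 25 listed genes 13 were tested, with a median of 0.35, and 10 had a higher mean, where 46.3% of all genes did. An unadjusted p under 0.05 was found for 3, or 23.1%, close to the 24.1% of all genes, and all 3 were higher. SREBF2, the regulator of the pathway, differed by 0.25. The median was 0.67 in low-RFI pigs but -0.12 in high-RFI pigs, and on slide 1 it was -0.17.

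EPO and LEPR were called lower in series 2 but lay near the background of the array there. EPO, the hormone of red blood cell formation, which the liver makes early in life and under low oxygen, was well above background on 8 arrays of series 1 and 4 arrays of series 2. Its levels ran from -3.11 to 2.89 (median -1.55) in series 1 and from -6.76 to -3.80 (median -5.43) in series 2, without overlap. The fitted change was -4.33 ± 0.84 (SE, 8 pigs per series; limma adjusted p = 0.044), and the SD within series 1, 2.12, was wider than that of any called gene named here. The probe of LEPR, the leptin receptor, was well above background on 8 arrays of series 1 and 1 array of series 2. It ran from -5.22 to -3.48 in series 1 and from -6.74 to -5.07 in series 2, overlapping slightly, with a fitted change of -1.99 ± 0.25 (SE, limma adjusted p = 0.0087) in 8 of 8 pairs. For both genes the size of the change rests in part on series 2 values that were not well above background, for LEPR all but 1. Each gene had 1 tested probe.

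**Figure D3:**
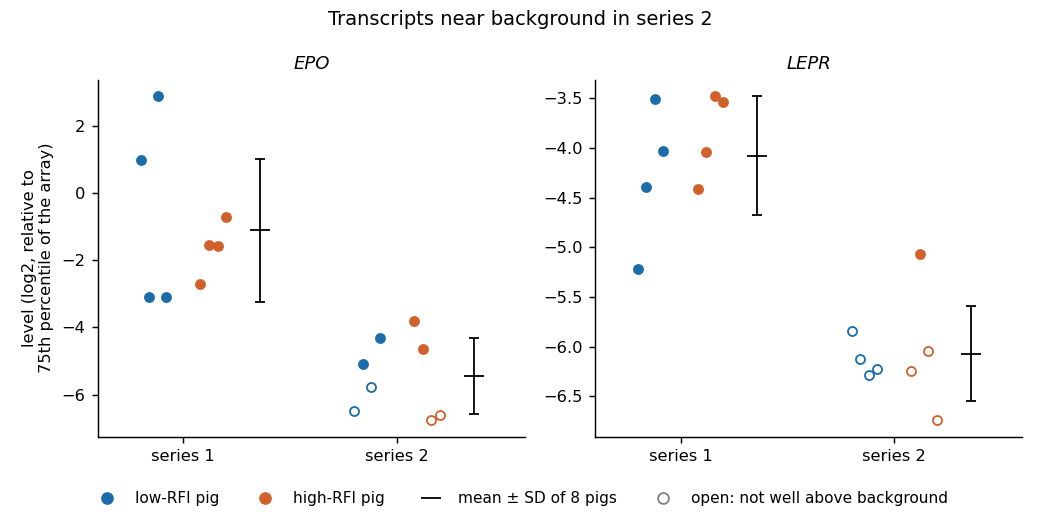
Levels of EPO and LEPR in each liver, log2 relative to the 75th percentile of the array, with open points for arrays on which the probe was not well above background and the mean and SD of 8 pigs beside each series. All series 1 points are filled, while 4 series 2 points for EPO and 1 for LEPR are.

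Other targets of hypoxia-inducible factors were nearer 0 than EPO. Of 20 genes listed 16 were tested, with a median of -0.11 and EPO the only one called. A lower mean was found for 11, or 68.8%, where 53.7% of all genes were lower. At an unadjusted p under 0.05, 4 were lower and 1 higher, against 14% and 10.1% of all genes. LDHA, which converts pyruvate to lactate, ran from 3.63 to 4.54 in series 1 and from 2.31 to 4.003 in series 2, a difference of -0.85 (limma adjusted p = 0.060). ADM, a vasodilator peptide gene, differed by -0.61, while VEGFA, the main vessel growth factor, differed by 0.17 and CA9, a carbonic anhydrase that tracks hypoxia, by -0.07. HMOX1, the heme-degrading enzyme, belongs to the antioxidant and iron lists and not to this one. It was lower in 8 of 8 pairs by 0.56 (limma adjusted p = 0.054).

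STAB1 and TEK, both markers of endothelium, were called lower in series 2. STAB1, a scavenger receptor of sinusoidal endothelium, ran from 3.82 to 4.30 (median 4.05) in series 1 and from 3.08 to 3.82 (median 3.34) in series 2, just without overlap. Its change was -0.66 ± 0.10 (SE, 8 pigs per series), 1.58-fold lower, in 8 of 8 pairs (limma adjusted p = 0.020). Of its 4 probes 2 were called, and the other two differed by -0.54 and -0.12. TEK, the angiopoietin receptor, ran from 0.08 to 0.87 and from -0.63 to 0.42 (change -0.70, limma adjusted p = 0.046), and was lower in 8 of 8 pairs.

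Of 19 endothelial markers 11 were tested, 9 with a lower and 2 with a higher mean, where 53.7% of all genes were lower. Of the 11, 2 were called and 6 were lower at an unadjusted p under 0.05, against 14% of all genes. The median was -0.34 and lay between -0.47 and -0.20 under all 42 settings tried. The mean level of the list ran from 0.60 to 0.96 over series 1 livers and from 0.27 to 0.82 over series 2 livers. KDR, the main receptor for VEGFA, differed by -0.68 (limma adjusted p = 0.052) and CLEC4G, a lectin of sinusoidal cells, by -0.38 in 8 of 8 pairs. PECAM1, an adhesion molecule of vessels in general, stood at 0.02, FLT1, another VEGFA receptor, at -0.03 and LYVE1, a hyaluronan receptor, at -0.06. In whole liver, fewer cells of a type and less RNA per cell cannot be told apart.

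VCAM1, an adhesion molecule by which leukocytes attach to the vessel wall, ran from 1.78 to 3.95 (median 2.12) in series 1 and from 0.35 to 1.90 (median 1.22) in series 2. It was lower in 8 of 8 pairs by 1.14 ± 0.20 (SE, 8 pigs per series; limma adjusted p = 0.036), with a small overlap. COL14A1, a collagen that binds to fibril surfaces, changed by -0.78 (limma adjusted p = 0.044), was lower in 7 of 8 pairs, and had 2 of 11 probes called. PLOD2, which prepares collagen for cross-linking, changed by -0.64 and SDC2, a heparan sulfate proteoglycan of the cell surface, by -0.65 (limma adjusted p = 0.048 and 0.046). TGFBR3, a co-receptor of TGF-beta, changed by -0.62 (limma adjusted p = 0.044). The list of stellate cells and fibroblasts had a median of -0.08, 6 of 14 tested members with a higher mean, and LUM, a small matrix proteoglycan, at 0.53. Its mean level ran from 0.41 to 0.73 in series 1 and from 0.32 to 1.24 in series 2.

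CLDN4, a tight junction protein of bile duct epithelium, ran from 0.23 to 1.21 in series 1 and from -1.13 to 0.02 in series 2, without overlap. Its change was -0.94 ± 0.18 (SE, 8 pigs per series; limma adjusted p = 0.044) in 8 of 8 pairs. No other bile duct marker was called, and the median of the 6 tested was 0.11, with SOX9, a duct transcription factor, at -0.05 and EPCAM, a surface marker of duct cells, at -0.25. The remaining called genes with lower levels were PAPOLG, a poly(A) polymerase (-0.73, ranges without overlap, limma adjusted p = 0.019), CYBRD1, a ferric reductase (-0.67, 0.045), SLC25A5, a mitochondrial ADP/ATP carrier (-0.60, 0.044), and SCAMP1, a protein of secretory vesicles (-0.48, 0.044).

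Interferon-induced genes had a higher median in series 2, at 0.48. MX2, a GTPase that blocks viruses, was the called member. It ran from -1.07 to 0.61 (median -0.55) in series 1 and from -0.15 to 1.73 (median 0.52) in series 2, with overlap, and was higher in 8 of 8 pairs by 1.17 ± 0.23 (SE, 8 pigs per series), 2.25-fold (limma adjusted p = 0.046). Its second probe differed by 1.003. Of 40 genes listed 26 were tested, 25 of them with a higher mean in series 2 where 46.3% of all genes were. At an unadjusted p under 0.05, 11 were higher, against 10.1% of all genes. IFIT3, an interferon-induced inhibitor of viral translation, was higher in 8 of 8 pairs by 0.94 (limma adjusted p = 0.051). RSAD2, an enzyme that makes a chain-terminating nucleotide, differed by 1.66 and OAS1, which activates RNase L, by 1.37 (limma adjusted p = 0.067 and 0.10). MX1 ran from 2.70 to 7.92 within series 1, and its difference of 0.84 had an SE of 0.63.

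Low-RFI pigs had a median of 0.50 over the interferon list and high-RFI pigs one of 0.55, and the lowest and highest values over all settings were 0.08 on slide 1 and 1.38 on slide 2. Markers of T and NK cells had a higher mean in 13 of 16 tested members, with a median of 0.49, none called, where 46.3% of all genes were higher. An unadjusted p under 0.05 was found for 4 of the 16, or 25%, close to the 24.1% of all genes, and 3 of these were higher. Their mean level ran from -2.63 to -1.41 in series 1 and from -2.51 to -0.48 in series 2. CD3E, part of the T cell receptor, differed by 0.76 and CD8B, a co-receptor of killer T cells, by 1.06, while CD3D differed by -0.12 and CD4 by 0.01. On slide 3 alone the T and NK median was -0.49. The part of these cells in the interferon result was not tested. KHNYN, which serves antiviral RNA decay, was higher in 8 of 8 pairs by 0.75 without overlap but missed the threshold (limma adjusted p = 0.051).

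CCL17, a chemokine that draws T cells bearing CCR4, ran from 1.24 to 1.65 (median 1.47) in series 1 and from 1.76 to 2.30 (median 2.02) in series 2. The 2 ranges did not overlap, and the change was 0.55 ± 0.10 (SE, 8 pigs per series; limma adjusted p = 0.040). The 22 tested members of the list of other chemokines and cytokines had a median of 0.01, with 11 higher, 11 lower and none called. SLC4A2, a chloride-bicarbonate exchanger, ran from 4.12 to 4.55 and from 4.67 to 5.06, also without overlap (change 0.57 ± 0.09 SE, limma adjusted p = 0.025), but its other probe differed by only 0.16. SLC17A1, a phosphate and urate carrier, changed by 0.64 (limma adjusted p = 0.048) and CLDN9, a tight junction protein, by 0.47 (0.041). SLC17A1 and CLDN9 were higher in 8 of 8 pairs.

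Among the 116 called probes without a symbol, A_72_P199347 had the largest higher change. It ran from -6.79 to -4.65 in series 1, where 3 arrays were well above background, and from -4.25 to -2.65 in series 2, where 8 were, a change of 1.94 ± 0.27 (SE, limma adjusted p = 0.014). A_72_P194642, well above background on every array, ran from -1.53 to 1.14 and from 0.84 to 2.73, a change of 1.91 (limma adjusted p = 0.033). A_72_P123711 was not well above background on any array of series 1 and was on all 8 of series 2 (limma adjusted p = 0.024). It therefore met the filter of 8 arrays through series 2 alone. With the main processing its mean in series 2, at -4.65, was 1.92-fold above a series 1 reference of -5.60. That reference averaged the lowest signal well above background on each series 1 array, or the probe's own where that was higher. The 1.92-fold is not a lower bound, because a signal can miss the background flag at a higher level. A_72_P199347 did so at -5.16 in RFIpl replicate 2 of series 1. The 1.92-fold also leaves out sampling error (the SE of the fitted change was 0.28). The size does not hold across processing, since the change was as low as 0.02 among the other settings tried. On the lower side A_72_P297384 changed by -2.70, A_72_P162596, described on the array as uroplakin 1B, by -1.95, and A_72_P122831 by -1.79. They were well above background on 8, 7 and 8 arrays of series 1 and on 3, 2 and 3 of series 2. Described probes of other genes with a call included transmembrane protein 108 (1.02), histone cluster 1 H1a (1.13) and granulysin, a protein of killer cell granules (0.53), all 3 higher in 8 of 8 pairs. The 59 called probes with a symbol covered 40 symbols, and 18 of the 175 called probes were well above background on fewer than 6 arrays of at least one series.

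The other lists had few or no called members. Over all genes, 46.3% had a higher and 53.7% a lower mean in series 2. Cell cycle and DNA replication had a median of 0.36 with 11 of 14 members higher and none called, but -0.52 on slide 4. The acute phase response had a median of -0.06, with LBP at -1.35 and SAA3 at -1.16 and neither called. Immediate early genes stood at -0.22 with 13 of 16 lower, glucocorticoid response at 0.25, and growth hormone, IGF and insulin signalling at -0.03. Within the last list IGF2, a fetal growth factor that falls after birth, was higher in 8 of 8 pairs by 0.48 (limma adjusted p = 0.054) at its brightest probe, while 1 of its 6 probes, A_72_P303139, was called at 0.56 (limma adjusted p = 0.049), and IGF1, the main effector of growth hormone, differed by -0.76 (limma adjusted p = 0.12). Proteasome subunits had a median of -0.15, with 15 of 16 lower and none called, and the respiratory chain with ATP synthase one of -0.11, with 18 of 21 lower and none at an unadjusted p under 0.05. Glycolysis stood at -0.25, drug and steroid metabolism at 0.16, MHC at 0.14, complement and coagulation at -0.06 and the circadian clock at -0.11 over 4 genes. Medians between -0.06 and 0.04, whose sign changed under at least 1 scaling, belonged to ribosomal proteins (0.03), antioxidant enzymes (0.04), gluconeogenesis (0.00), amino acid catabolism (-0.02), iron (0.02) and lipoproteins (-0.06), and bile acids stood at -0.10. Among these lists, from cell cycle to bile acids, only the glucocorticoid list had a member whose brightest probe was called, ANGPTL4. The medians of the bile duct, chemokine, fatty acid oxidation and periportal lists and the difference of UTY also changed sign under at least 1 scaling.

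Markers of the cells that make up the liver gave the following. Hepatocyte markers such as ALB were the brightest list, with mean levels from 8.30 to 8.56 in series 1 and from 8.46 to 8.82 in series 2, so transcripts that define the labelled tissue were present on all arrays. All 9 tested had a higher mean in series 2, where 46.3% of all genes had. Their median was 0.15 with none called, and it was -0.01 under quantile normalisation. Pericentral hepatocyte markers had a median of -0.27 and periportal ones of -0.07. Kupffer cells and macrophages stood at -0.18, although FCGR1A, an antibody receptor near background, differed by 1.62. Granulocytes stood at 0.10, erythroid cells at -0.10, B and plasma cells at 0.18 over 3 genes, and pancreas, fat and muscle at 0.17. Of Y-linked genes and XIST only UTY was tested, with a difference of 0.34.

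**Figure D4:**
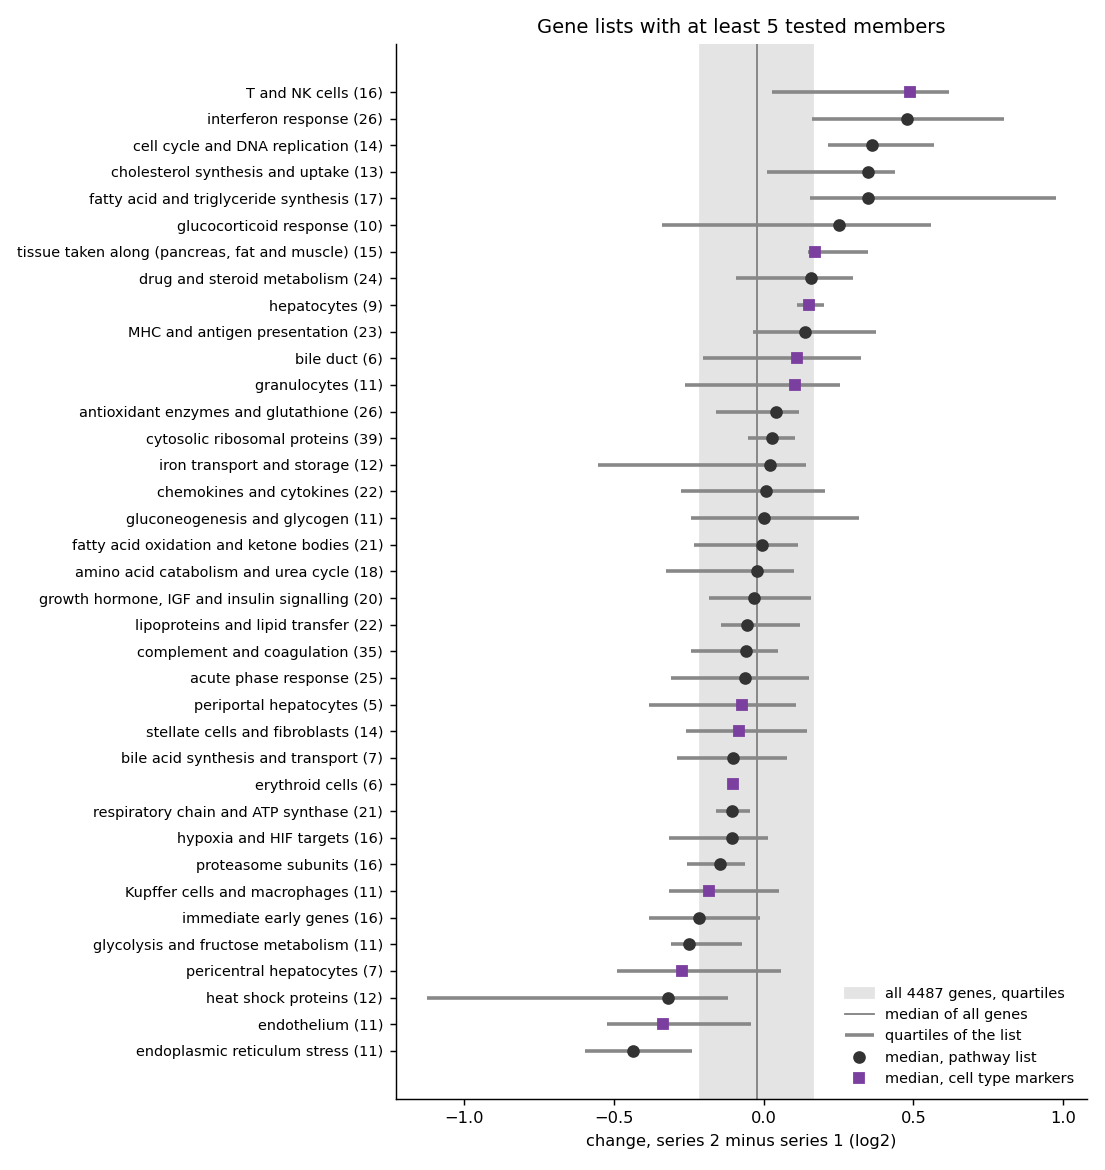
Median change of each gene list with at least 5 tested members, series 2 minus series 1 in log2 units, with its quartiles (bars) and the number of members tested in brackets, against the quartiles and median of all 4487 genes (band and line). T and NK cells, interferon response, cell cycle and DNA replication, the synthesis of cholesterol and of fatty acids, glucocorticoid response, and pancreas, fat and muscle lie above the band. Endoplasmic reticulum stress, endothelium and heat shock proteins are the 3 lowest, and pericentral hepatocytes, glycolysis and immediate early genes also lie below the band.

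The series difference was looked for in each line. For the line by series interaction 1 of 30097 probes was called (0.00332%) and no gene was by limma, while 2043 probes (6.79%) and 300 genes had an unadjusted p under 0.05. The called probe, A_72_P087841, changed by -0.66 in low-RFI and by 0.92 in high-RFI pigs. With 4 pigs against 4 of a line limma called no gene in either line, and 381 genes in low-RFI and 643 in high-RFI pigs had an unadjusted p under 0.05. The line term of the fit itself called 2 probes (0.00665%), with 6.61% of probes at an unadjusted p under 0.05. The calls also depended on single pigs. Only 3 of the 25 called genes were called without RFIneg replicate 7 or without RFIpl replicate 4, whereas all 25 were without RFIneg replicate 1 or RFIneg replicate 4. HSP70.2, CPT1A and LEPR, and the probe A_72_P199347, passed without any one of the 16 pigs, with adjusted p-values from 0.010 to 0.033 for HSP70.2 and from 0.010 to 0.049 for CPT1A. LEPR met the filter of 8 arrays through series 1 and A_72_P199347 through series 2, the series where each was higher. These fits kept that filter, so they do not test the part it played. STAB1 passed in 14 of 16 such fits (0.011 to 0.053), PAPOLG in 13 (0.014 to 0.059), ACSL4 in 8 (0.011 to 0.087), ANGPTL4 in 6 (0.012 to 0.094), EPO in 4 (0.020 to 0.11) and MX2 in 3 (0.025 to 0.10). No change of a gene or probe chosen by the naming rules given under processing turned sign in them. SLC25A5, SCAMP1, TGFBR3 and genes given only as list members were not followed in these fits. Across the other settings tried, single slides apart, HSP70.2 ran from -2.39 to -1.76 and CPT1A from -1.12 to -0.81. The size depended more on processing for LEPR, near background in series 2, which ran from -2.18 to -0.44 over these settings. The same held for A_72_P199347, near background in series 1, which ran from 0.24 to 2.35. Single slides spread wider for HSP70.2 (-3.04 to -1.24) and CPT1A (-1.30 to -0.50). On them LEPR ran from -2.70 to -1.23 and A_72_P199347 from 1.53 to 2.71.

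Most measures of the arrays did not separate the series. Mean 75th percentile signals were 428 ± 16.8 (SD, n = 8) in series 1 and 396 ± 68.5 (SD, n = 8) in series 2, and probes well above background numbered 30146 ± 836 and 30491 ± 2009. No difference was detected in these, in the local background, in the noise of repeated probes or in the correlation between arrays (exact two-sided permutation tests over 12870 splits, adjusted p from 0.67 to 0.79 over 8 measures). The first principal component, which held 20.3% of the variance, did separate them. Its score was -25.4 ± 17.7 in series 1 and 25.4 ± 28.5 in series 2 (exact two-sided permutation p = 0.00062, adjusted p = 0.0050), and it was higher in 7 of 8 pairs (exact sign-flip p = 0.016, adjusted p = 0.13). The scanner software marked 5 arrays for evaluation, 3 in series 1 and 2 in series 2, all from high-RFI pigs. RFIpl replicate 6, in series 2, stood apart with 34977 probes well above background, and without it 17 of the 25 genes were called, among 38 in all.

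**Figure D5:**
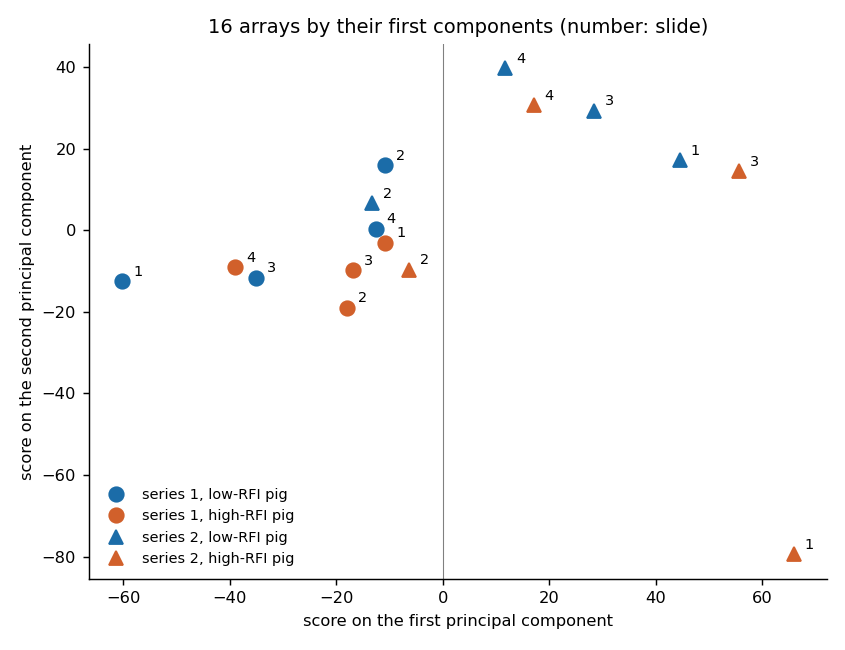
Scores of 16 arrays on the first and second principal components of all probes without missing values, by series (circles for series 1, triangles for series 2) and line (colour), with the slide number beside each. All 8 series 1 arrays lie below 0 on the first component and 6 of 8 series 2 arrays above it, and RFIpl replicate 6 lies far down at -79.5 on the second.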

How the data were processed

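Liver RNA was labelled with Cy3 and hybridised to 1-colour Agilent pig arrays. Per the file headers, the deposited processed signal (from Feature Extraction 10.7.3.1) is a background-subtracted intensity on a linear scale. The authors' deposited log2 table lists 27938 spots, whose values equal the log2 processed signal minus its array median to within 4.5e-08. The submitters' processing notes name R 2.10.0.

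Outlier spots were set to missing, log2 processed signal was scaled to each array's 75th percentile, and spots of a probe were averaged. Probes well above background on at least 8 of 16 arrays were tested (30097 of 43603; 13506 were left out). Of all probes 12128 carried exactly 1 symbol. List members were matched by symbol or by an older name in the RefSeq gene table. Probe positions are not given, as no genome was used. Some genes are not reported here.

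The series term of limma 3.58.1 (R 4.3.3), with line and slide, was adjusted by Benjamini-Hochberg over all tested probes. Replicates are separate pigs. Numbers 1 to 4 of each line are series 1 and 5 to 8 series 2, so they pair no pigs across series. Named genes are the 12 with the largest called change per direction, up to 2 called members per list, near-background genes apart, up to 3 probes without a symbol per direction and, where under 10 were called, the 10 with the smallest p. Members and the 40 lists were chosen with earlier results of these data known. The fit was tested on simulated data. Alternatives covered scaling, background, filters, covariates, thresholds and leaving out pigs. Figures used matplotlib 3.10.9.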

Additional observations from a re-analysis of the deposited data

Results flagged for a closer look

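Of 78 sets of 8 values looked at, 7 held 1 pig or array far from the others, and about 1 in 20 would by chance. Among gene values, RFIneg replicate 2 was the highest series 1 liver for CLDN4 (1.21, next 0.454), COL14A1 (2.90, next 2.55) and IFIT3 (1.82, next 1.09). RFIneg replicate 1 was the highest for VCAM1, at 3.95 against 2.79. RFIpl replicate 6 of series 2 had 34977 probes well above background (next 30999), the lowest median correlation with other arrays, 0.9707 (next 0.97721), and a second principal component score of -79.461 (next -9.7278). The change of A_72_P087841 differed between the lines by -1.59 (low-RFI minus high-RFI, limma interaction, adjusted p = 0.045), from -0.66 in low-RFI to 0.92 in high-RFI pigs, and its change over all 16 pigs was 0.13.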

How the results depend on the processing

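No called change of a gene chosen by the naming rules reversed its direction, and other genes mentioned were not followed across settings. The counts of calls moved widely. Against 25 genes and 175 probes called between the series, there were 82 genes and 581 probes without slide, 89 and 611 with slide as a random block, and 52 and 313 without line. Scaling gave 52 and 275 (quantile), 47 and 277 (array medians), 59 and 358 (cyclic loess), 11 and 61 (normexp with an offset of 50) and 58 and 382 (the authors' values). Filtering gave 5 and 22 without a filter and 76 and 485 with a signal above background on all 16 arrays. There were 2 genes and 9 probes with array position in place of slide, 3 and 17 with array noise as a covariate, 80 and 475 with trend and robust variances, and 160 and 1103 with array weights. The threshold of 0.01 gave 2 genes and 7 probes and that of 0.1 gave 334 and 2421. Without the marked arrays 2 genes and 10 probes were called, and within low-RFI or high-RFI pigs alone 0 of each. Leaving out 1 pig gave 3 to 257 genes and 16 to 1962 probes. For the line by series interaction, the 1 called probe became 0 without slide, with slide as a random block, under quantile, median and cyclic loess scaling, normexp, no filter or a threshold of 0.01, and 0 to 2 without 1 pig. The cause of these shifts was not tested.

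The replicate number cannot be a fixed block, since it is nested in the series. With the replicate block as random, at a correlation of 0.0374, 13 genes and 85 probes were called, and all 13 were among the 25. Medians of 12 lists changed sign under at least 1 scaling, all from a median within 0.16 of 0 except the single tested Y-linked gene. Levels near background limit EPO, LEPR and the dim probes.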
